A study of Mus musculus with 14 samples.

Results

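The genes described here are those of the urea cycle and its mitochondrial supply, with 3 enzymes that break down single amino acids, in mouse livers with floxed Lmna. The list names 10 genes (Cps1, Ass1, Asl, Arg1, Otc, Nags, Gls2, Hal, Sds and Slc25a15), and a probe set was taken where the array annotation gave it exactly 1 symbol equal to a listed gene, the brightest where a gene had several. This gave a value for 8 of the 10 genes among 22180 genes tested, while Gls2 and Sds matched no probe set by that rule and were not analysed here. Liver RNA of 14 male C57BL/6 mice had been hybridised to whole-transcript arrays, 1 liver per array, and every value below is a log2 intensity after RMA unless it is called a difference.

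The mice fall into 5 groups by Lmna genotype and diet, and all of them, controls included, carried Alb-cre. KO on HFD had the genotype LMNA flx/flx; Alb-cre+ (3 livers, 35.3 weeks of age), and HET on HFD had LMNA flx/+; Alb-cre+ (3 livers, 30 to 30.4 weeks). KO on chow had LMNA flx/flx; Alb-cre+ (3 livers, 38.9 weeks), HET on chow LMNA flx/+; Alb-cre+ (3 livers, 24 to 26.4 weeks) and WT on chow LMNA +/+; Alb-cre+ (2 livers, 24.6 and 27 weeks). HFD stands for the high-fat Surwit diet with drinking water that held 42 g/L of carbohydrate (55% fructose and 45% sucrose), and both diets were given for 14 weeks. No WT mice on HFD were among the samples. Lmna codes for lamin A and lamin C of the nuclear lamina, and Alb-cre makes Cre recombinase under the albumin promoter, which is active in hepatocytes. Which other liver cells kept their Lmna was not tested. KO mice were older than HET mice on the same diet, so that age and genotype cannot be told apart.

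Median log2 intensities of the arrays lay between 2.21 and 2.30. The Lmna probe set was dim, with means of 3.99 ± 0.09 in KO on HFD, 4.15 ± 0.13 in HET on HFD, 3.85 ± 0.22 in KO on chow, 4.31 ± 0.08 in HET on chow and 4.47 ± 0.05 in WT on chow (SD, n = 3, 3, 3, 3 and 2). It was lower in KO than in HET over both diets by limma (difference -0.31 ± 0.09, SE, adjusted p = 0.0386). The difference was not called on HFD alone (-0.16 ± 0.12, adjusted p = 0.517) or on chow alone (-0.47 ± 0.12, adjusted p = 0.0823). Relative to WT livers on chow it was lower in KO livers (-0.62 ± 0.14, adjusted p = 0.0393). Whether the Lmna probes lie in the floxed part was not given. Among the chow HET livers, F1 and F2 stood apart from P1 in clock genes. Dbp, a transcription factor of the clock's output, read 6.68 in F1 and 5.70 in F2 but 9.56 in P1, and Arntl, the core clock activator, read 8.13 and 8.34 against 4.22.

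The urea cycle turns ammonia and bicarbonate into urea for excretion, and in liver it runs in the hepatocytes around the portal vein. Its first steps take place in mitochondria, where NAGS makes N-acetylglutamate, CPS1 needs that molecule to form carbamoyl phosphate, and OTC joins this with ornithine to give citrulline. In the cytosol ASS1 and ASL turn citrulline into argininosuccinate and then arginine, ARG1 splits arginine into urea and ornithine, and the carrier SLC25A15 takes ornithine back into the mitochondrion. HAL, histidine ammonia-lyase, opens histidine breakdown by releasing its amino group as ammonia.

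Promoter windows from RefSeq (build GRCm38.p6, 250 bases before to 50 after the start of transcription) matched 5 of the 10 genes with 6 windows. They are shown for Nags, which fell in KO livers over both diets, for Hal, whose difference between diets in KO livers was the largest of the 8 genes, and for Otc, whose difference between KO and HET over both diets was the smallest. Capitals mark a match to any of the 6 motifs searched. The Nags window lies at chr11:102145263-102145562, the Hal window at chr10:93488518-93488817 and the Otc window at chrX:10252055-10252354, all on the plus strand.
Nags: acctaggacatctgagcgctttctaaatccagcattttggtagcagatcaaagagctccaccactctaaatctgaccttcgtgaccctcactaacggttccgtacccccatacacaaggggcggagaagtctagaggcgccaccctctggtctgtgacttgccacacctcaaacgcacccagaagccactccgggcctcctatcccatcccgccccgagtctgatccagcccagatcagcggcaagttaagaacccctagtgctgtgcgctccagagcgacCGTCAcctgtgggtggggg
Hal: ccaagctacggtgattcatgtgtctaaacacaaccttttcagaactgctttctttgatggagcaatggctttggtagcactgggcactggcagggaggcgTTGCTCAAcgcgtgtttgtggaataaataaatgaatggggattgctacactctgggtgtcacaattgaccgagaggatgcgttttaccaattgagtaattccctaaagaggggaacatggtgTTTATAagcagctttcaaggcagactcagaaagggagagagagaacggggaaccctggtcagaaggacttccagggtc
Otc: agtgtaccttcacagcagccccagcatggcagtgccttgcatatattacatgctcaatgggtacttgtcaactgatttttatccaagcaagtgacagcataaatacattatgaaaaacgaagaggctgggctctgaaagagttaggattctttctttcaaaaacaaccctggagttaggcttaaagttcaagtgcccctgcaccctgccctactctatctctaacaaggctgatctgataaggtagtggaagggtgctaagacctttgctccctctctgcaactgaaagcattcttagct

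The motifs were the C/EBP-type TTGCNNAA, the cyclic-AMP response element TGACGTCA and its core TGACG (which lies within it), the E-box CACGTG, the TATA box TATAAA and the HNF4-type CAAAGTCCA, each on both strands. The Nags window held the TGACG core on its minus strand at position 32, counted from the start of transcription. The Hal window held TTGCNNAA at position -150 and TATAAA on the minus strand at -28, and the Otc window held none of the 6. Over all 32851 RefSeq windows, 10.8% held TTGCNNAA, 1.79% TGACGTCA, 20.8% TGACG, 7.15% CACGTG, 13.6% TATAAA and 0.475% CAAAGTCCA. G and C made up 57.7% of the Nags window, 47.7% of the Hal window and 44.3% of the Otc window.

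On HFD, Asl and Cps1 fell in KO livers relative to HET livers, and these were the 2 calls among the 8 genes (limma, adjusted p under 0.05). Of all genes tested, 2.06% were called lower in this comparison and 7.56% in either direction. All 8 differences were negative, with a median of -0.39 on the log2 scale against -0.02 over all genes. In 5 of the 8, Asl, Cps1, Hal, Nags and Otc, every KO liver lay below every HET liver, which held for 12.8% of all genes. In bulk liver, fewer hepatocytes of a zone and less RNA in each of them cannot be told apart.

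**Figure D1:**
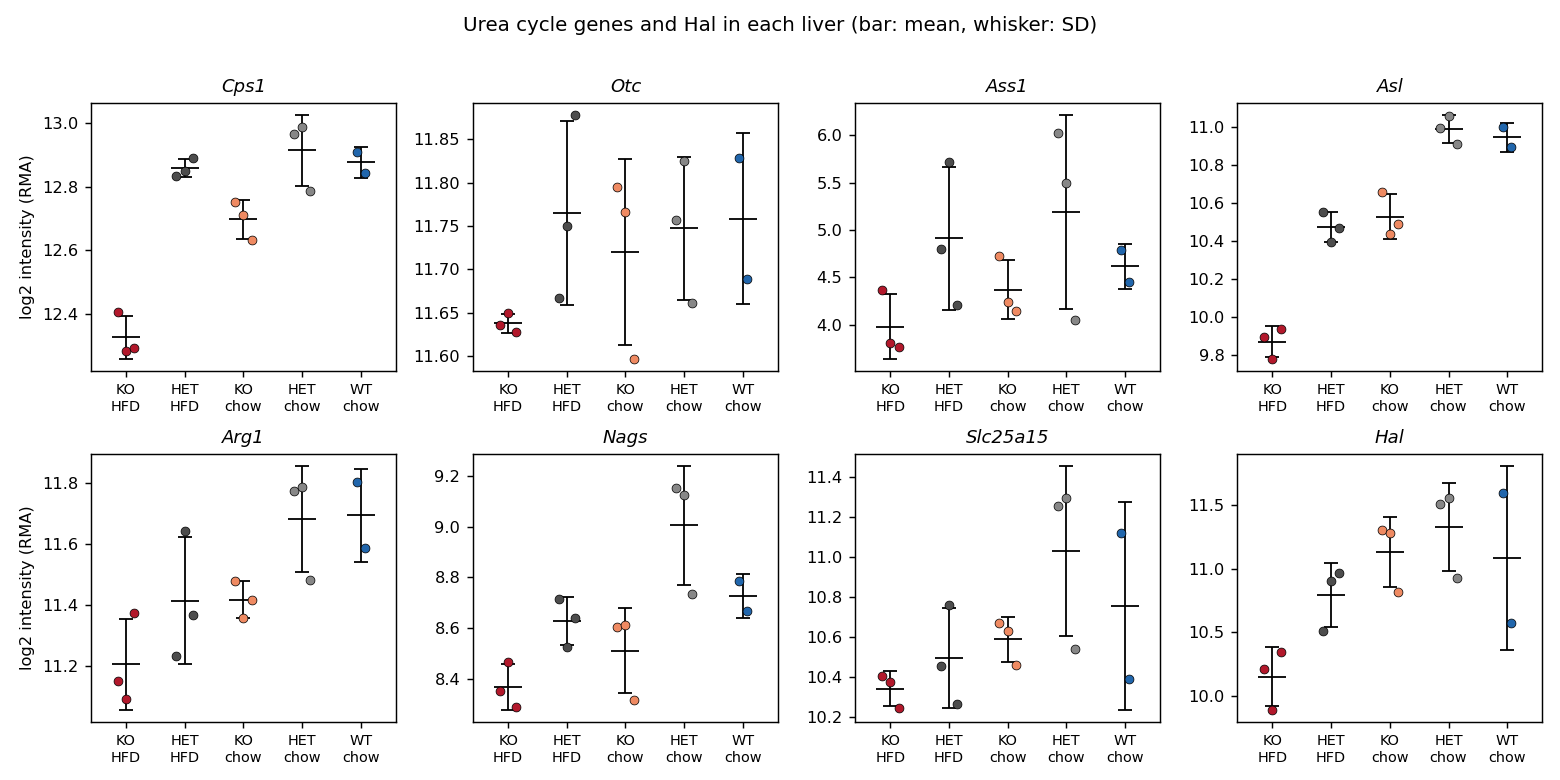
Log2 intensity (vertical axes) of the 8 measured genes in each liver, by genotype and diet. Dots are single livers, bars are group means and whiskers are SDs. The 3 KO livers on HFD are the lowest of all 14 for Asl and Cps1, between 9.78 and 9.94 and between 12.28 and 12.41.

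Cps1, the entry enzyme, read 12.41, 12.28 and 12.29 in KO livers on HFD, against 12.83, 12.85 and 12.89 in HET livers on HFD. The difference was -0.53 ± 0.09 (SE, adjusted p = 0.00433), which is 0.693 times the HET level, and each KO liver lay below each HET liver. On chow, Cps1 read 12.75, 12.71 and 12.63 in KO livers, against 12.97, 12.99 and 12.79 in HET livers and 12.91 and 12.84 in WT livers. The chow groups did not overlap either, but the difference of -0.22 ± 0.09 from HET livers did not pass (adjusted p = 0.336). Over both diets together Cps1 fell by 0.37 (SE 0.07, adjusted p = 0.0032). The difference between KO and HET was larger on HFD than on chow by 0.31 in size (interaction -0.31 ± 0.13, unadjusted p = 0.0346, adjusted p = 0.465), so it was not shown to depend on diet.

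Nags, which makes the activator of CPS1, read 8.35, 8.47 and 8.29 in KO livers on HFD, against 8.71, 8.53 and 8.64 in HET livers on HFD. It read 8.60, 8.61 and 8.32 in KO livers on chow, against 9.15, 9.13 and 8.74 in HET livers and 8.79 and 8.67 in WT livers on chow. Every KO liver lay below every HET liver on the same diet. Neither diet alone gave a call (-0.26 ± 0.13, adjusted p = 0.295 on HFD, and -0.50 ± 0.13, adjusted p = 0.0855 on chow), but over both diets Nags fell by 0.38 (SE 0.09, adjusted p = 0.0224). That call was lost without HET F1, HET F2, KO I1, HET A2 or KO C4 (adjusted p between 0.0525 and 0.0604), and with F1 and F2 both left out the difference was -0.24 (adjusted p = 0.214). A second, dimmer Nags probe set gave -0.29 ± 0.11 over both diets (adjusted p = 0.132).

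Otc, the X-linked enzyme that makes citrulline, varied least between groups. It read 11.64, 11.65 and 11.63 in KO livers on HFD, against 11.67, 11.75 and 11.88 in HET livers on HFD, and the difference of -0.13 (95% interval -0.34 to 0.09) did not pass (adjusted p = 0.532). On chow its group means were 11.72 ± 0.11 in KO, 11.75 ± 0.08 in HET and 11.76 ± 0.10 in WT livers (SD, n = 3, 3 and 2), and the groups overlapped. The KO and HET difference over both diets was -0.08 ± 0.07 (adjusted p = 0.591).

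Asl, which releases arginine from argininosuccinate, was called in more comparisons than any other of the 8 genes. It read 9.89, 9.78 and 9.94 in KO livers on HFD, against 10.56, 10.39 and 10.47 in HET livers on HFD. The groups did not overlap, and the difference was -0.60 ± 0.10 (adjusted p = 0.00305, 95% interval -0.82 to -0.38), or 0.659 times the HET level. On chow, Asl read 10.66, 10.43 and 10.49 in KO livers, against 10.996, 11.06 and 10.91 in HET livers and 10.999 and 10.89 in WT livers. The KO livers lay below all livers of both chow controls. Relative to HET livers Asl fell by 0.46 on chow (SE 0.10, adjusted p = 0.0358), while the difference from WT livers, -0.42 ± 0.11, was not called (adjusted p = 0.103). In order of the means, KO on HFD (9.87) was followed by HET on HFD (10.47), KO on chow (10.53), WT on chow (10.95) and HET on chow (10.99), where HET on HFD overlapped KO on chow and WT overlapped HET on chow.

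Both calls on HFD held when any single array was left out, with adjusted p between 0.00349 and 0.0162 for Asl and between 0.00399 and 0.0218 for Cps1. With age as a linear term, both calls on HFD were lost. The differences were then -0.86 for Asl (adjusted p = 0.168) and -0.81 for Cps1 (adjusted p = 0.157). Over both diets the calls of Asl (adjusted p = 0.407), Cps1 (-0.88, adjusted p = 0.433) and Nags (-1.49, adjusted p = 0.236) were lost too. Ages varied within a group only among HET and WT livers, while all KO livers of a diet shared the same age. The age term thus extends a slope from those controls to the older KO livers, and it cannot separate age from genotype. The chow call of Asl was lost without HET F1, HET F2, KO H2, KO I1 or KO C2 on HFD (adjusted p between 0.0562 and 0.147), and with F1 and F2 both left out the difference was -0.38 (adjusted p = 0.372). It was also lost with age as a linear term (adjusted p = 0.536), with each array centred on its median (adjusted p = 0.0529), with a clock term (adjusted p = 0.0529) and when only the groups compared were fitted (adjusted p = 0.146). Over both diets Asl fell by 0.53 (SE 0.07, adjusted p = 0.000448). With F1 and F2 both left out, the differences over both diets were -0.49 for Asl (adjusted p = 0.00946) and -0.31 for Cps1 (adjusted p = 0.0468).

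Arg1, the enzyme that forms urea, read 11.15, 11.09 and 11.38 in KO livers on HFD, against 11.23, 11.64 and 11.37 in HET livers on HFD. The groups overlapped and the difference of -0.21 ± 0.13 did not pass (adjusted p = 0.425). On chow Arg1 read 11.48, 11.36 and 11.42 in KO livers, against 11.77, 11.79 and 11.48 in HET livers and 11.80 and 11.59 in WT livers. These groups did not overlap by a small margin at HET P1, and the difference of -0.26 ± 0.13 from HET livers did not pass (adjusted p = 0.431).

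The probe set annotated to Ass1, the enzyme upstream of ASL, was dim and scattered. It ran between 3.76 and 4.37 in KO livers on HFD, between 4.21 and 5.72 in HET livers on HFD, between 4.14 and 4.72 in KO livers on chow and between 4.04 and 6.02 in HET livers on chow, with 4.79 and 4.45 in WT livers. Its residual SD of 0.644 exceeds that of the other 7 genes, which ran up to 0.355, and its difference of -0.93 ± 0.45 on HFD did not pass (adjusted p = 0.264). Gm5424, a transcribed pseudogene in RefSeq that is known as a copy of Ass1, was looked up after these values were seen. It read 10.93, 10.96 and 10.999 in KO livers on HFD, against 11.84, 11.69 and 11.60 in HET livers on HFD, with no overlap, and the difference was -0.75 ± 0.16 (adjusted p = 0.0144). The call was lost without HET A2 or KO C2 (adjusted p 0.0516 or more), and on chow the difference of -0.28 ± 0.16 did not pass (adjusted p = 0.506). Whether this probe set also reads Ass1 RNA was not tested.

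Slc25a15, the mitochondrial ornithine carrier, read 10.41, 10.37 and 10.24 in KO livers on HFD, against 10.46, 10.76 and 10.26 in HET livers on HFD, and the groups overlapped (difference -0.15, adjusted p = 0.763). On chow it read 10.67, 10.63 and 10.46 in KO livers, against 11.25, 11.29 and 10.54 in HET livers and 11.12 and 10.39 in WT livers. The chow controls were split, with HET F1, HET F2 and WT G1 above 11 and HET P1 and WT N1 near the KO livers, and the difference of -0.44 ± 0.22 from HET livers did not pass (adjusted p = 0.413). Hal read 11.30, 11.28 and 10.81 in KO livers on chow, against 11.50, 11.55 and 10.93 in HET livers and 11.59 and 10.57 in WT livers on chow. The same controls were high and low, and the difference of -0.20 ± 0.26 from HET livers did not pass (adjusted p = 0.816). On HFD Hal read 10.22, 9.90 and 10.35 in KO livers, against 10.51, 10.90 and 10.97 in HET livers, with no overlap and a difference of -0.64 ± 0.26 that did not pass (adjusted p = 0.171).

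**Figure D2:**
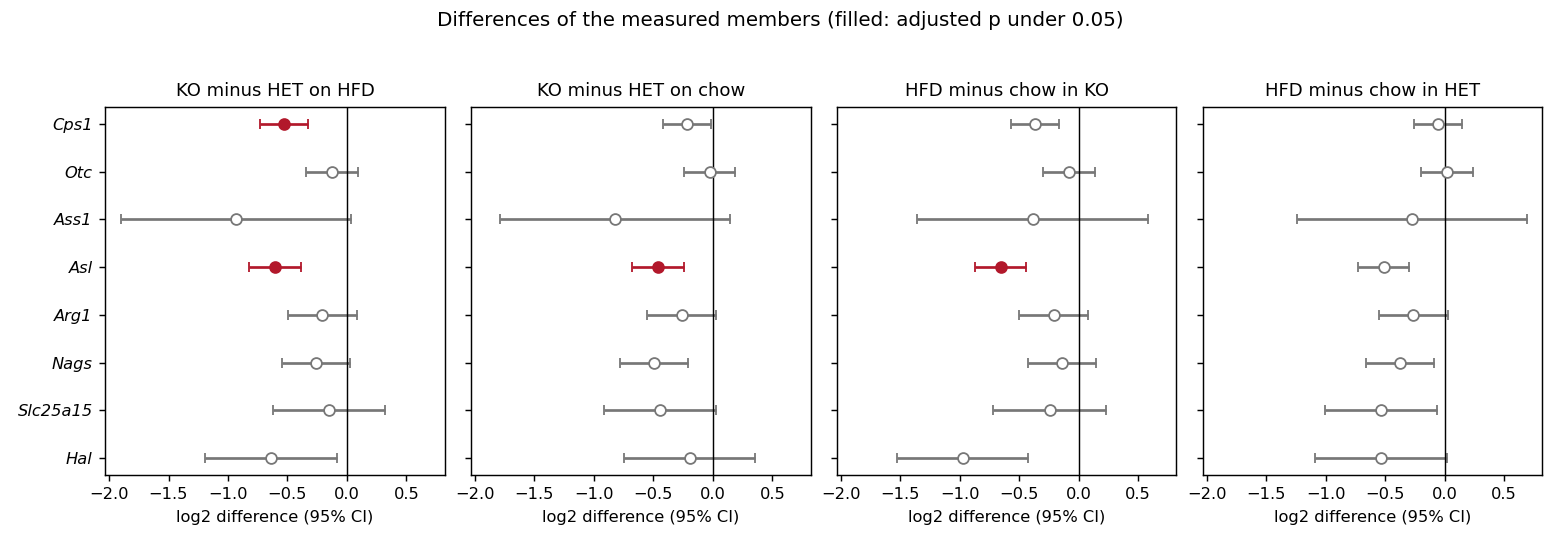
Differences in log2 intensity (horizontal axes) of the 8 genes in 4 comparisons, with 95% intervals; filled points passed an adjusted p under 0.05 over all 22180 genes. Asl passed in 3 of the panels and Cps1 in the panel of KO and HET on HFD, and the Ass1 intervals are the widest.

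On chow, Asl was the 1 gene of the 8 called lower in KO than in HET livers, where 0.478% of all genes were called lower, 1.44% higher and 1.92% in either direction. All 8 differences were negative, with a median of -0.35 against -0.01 over all genes. In 4 of the 8 (Arg1, Asl, Cps1 and Nags) the groups did not overlap, which held for 9.3% of all genes in that direction. Against WT livers, no gene of the 8 was called by limma (1 at an unadjusted p under 0.05, against 11.8% of all genes, and 1, Asl, called with a trended and robust prior), where 0.41% of all genes were called lower and 1.65% in either direction. Of the 8 differences from WT livers 7 were negative, and the same 4 genes did not overlap (13.5% of all genes). Between HET and WT livers on chow no gene of the 8 was called by limma (0 at an unadjusted p under 0.05), and of all 22180 genes 0% were called, while 4.3% of these had an unadjusted p under 0.05. The largest difference of HET from WT livers was 0.57 ± 0.50 for Ass1.

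Over both diets 3 of the 8 genes, Asl, Cps1 and Nags, fell in KO livers relative to HET livers, where 2.9% of all genes were called lower and 9.43% in either direction. The remaining 5 differences over both diets were also negative and ran between -0.88 ± 0.32 for Ass1 (adjusted p = 0.112, but 0.0264 to 0.0455 and called under 3 alternatives) and -0.08 for Otc.

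Diet was compared within genotype. HFD livers came from older mice than chow livers among HET and from younger mice among KO, with no shared ages, so that diet and age cannot be told apart here either. In KO livers, Asl fell on HFD by 0.66 relative to chow (SE 0.10, adjusted p = 0.0203), or to 0.634 times the chow level, and it was the 1 gene of the 8 called. In that comparison 0.108% of all genes were called lower, and 0.316% in either direction. The call was lost without KO H1, KO H2, KO C2, KO C3 or KO C4 (adjusted p between 0.0516 and 0.104), with age as a linear term (-0.47, adjusted p = 0.323) and when only the groups compared were fitted (adjusted p = 0.0814). Hal had the largest difference of the 8, -0.98 ± 0.26, which did not pass (adjusted p = 0.147), and Cps1 differed by -0.37 ± 0.09 (adjusted p = 0.138). For Asl, Cps1, Hal and Slc25a15 every KO liver on HFD lay below every KO liver on chow, which held for 9.68% of all genes.

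In HET livers, no gene of the 8 was called between HFD and chow by limma (3 at an unadjusted p under 0.05, against 10.2% of all genes, and 1, Asl, called with a trended and robust prior), where 0.149% of all genes were called lower and 0.198% in either direction. Asl differed by -0.51 ± 0.10 (adjusted p = 0.0736) and Nags by -0.38 (adjusted p = 0.333), both without overlap (6.83% of all genes). The second Nags probe set had the other sign, 0.15 ± 0.16 (adjusted p = 0.809), and its groups overlapped. Of the 8 differences 7 were negative. Cps1 differed by -0.06 in HET livers (adjusted p = 0.899). The interaction of genotype and diet called no gene of the 8 by limma (1 at an unadjusted p under 0.05, against 9.86% of all genes, and 1 called with age as a linear term, Slc25a15) and 0.0361% of all genes. Since the comparisons share groups, their values are given side by side and were not set against each other.

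Across the 14 livers Cps1 and Asl went together most closely of all pairs of the 8 genes (Pearson r = 0.90), and Otc and Ass1 least (r = 0.46). Ass1 was most like Slc25a15 (r = 0.80), Hal most like Arg1 (r = 0.82), Nags most like Slc25a15 (r = 0.81) and Otc most like Hal (r = 0.74). The 6 genes of the array most like the mean of the 8 standardised genes were Cbs (r = 0.963), Amdhd1 (r = 0.960), Dbt (r = 0.958), Agxt (r = 0.958), Hgd (r = 0.957) and Qdpr (r = 0.951). These correlations describe 14 livers that share genotype and diet groups. With group means removed, r was 0.53 for Cps1 and Asl, and Ass1 and Slc25a15 were the closest pair of the 8 genes (r = 0.83). Cbs, which makes cystathionine from homocysteine, read 9.83, 9.63 and 9.73 in KO livers on HFD, against 10.27, 10.54 and 10.70 in HET livers on HFD, without a call. Over both diets it was called lower by limma (-0.62 ± 0.17, SE, adjusted p = 0.0338), in only 5 of 14 fits without 1 array. On chow it too was high in HET F1, HET F2 and WT G1 (11.03, 11.02 and 10.99) and lower in HET P1 and WT N1 (10.20 and 10.16).

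The list of genes that supply or surround the cycle, such as amino acid carriers, held 21 measured genes. Of these, 1 rose and 1 fell in KO relative to HET livers on HFD, with a median difference of -0.04. In this comparison 5.5% of all genes were called higher and 2.06% lower. Slc7a2, the cationic amino acid transporter that brings arginine into hepatocytes, read 9.87, 9.96 and 9.89 in KO livers on HFD, against 10.61, 10.48 and 10.63 in HET livers on HFD. It fell by 0.66 (SE 0.13, adjusted p = 0.00713), and on chow its difference of -0.50 ± 0.13 did not pass (adjusted p = 0.0705). Slc7a7, the exchanger subunit y+LAT1 that is also found in macrophages, read 6.70, 6.81 and 7.30 in KO livers on HFD, against 5.67, 5.77 and 5.85 in HET livers on HFD. It rose by 1.17 (SE 0.21, adjusted p = 0.00475).

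Markers of other cells were also read in these livers. Of all genes 5.5% were called higher and 2.06% lower in KO relative to HET livers on HFD. On HFD the mean of 15 macrophage markers ran between 6.54 and 6.88 in KO livers, against 5.58 to 6.15 in HET livers, with 4 markers called higher and 1 lower. The mean of 12 stellate cell markers ran between 6.93 and 7.06 in KO livers, against 6.21 to 6.58 in HET livers, with 4 called higher and 1 lower. Lymphocyte markers (10 genes, 2 called higher) averaged between 3.74 and 4.09 in KO livers, against 3.21 to 3.39 in HET livers. Cholangiocyte markers (7 genes, 1 called higher) averaged between 3.04 and 3.71 in KO livers, against 2.84 to 2.89 in HET livers. The 6 measured markers of fat and pancreas (2 called higher, Fabp4 and Cela1) averaged between 3.07 and 3.35, against 2.75 to 2.87. No listed red cell marker had a value, so blood content was not read. Endothelial markers (10 genes, 1 called lower) and neutrophil markers (7 genes, 0 called) overlapped between the groups. Neutrophil markers averaged between 1.99 and 2.04 in KO livers and between 1.90 and 2.10 in HET livers. These means lie below the array medians of 2.21 to 2.30, so the 0 calls cannot show whether neutrophils differed. Some cholangiocyte and lymphocyte markers, such as Cldn7 and Cd3d, were as dim. The mean of 9 hepatocyte markers ran between 11.20 and 11.22 in KO livers, against 11.33 to 11.39 in HET livers, with 2 called lower.

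On chow the macrophage markers averaged between 5.96 and 6.57 in KO livers, against 5.33 to 6.06 in HET livers, and the groups overlapped. Of these markers 3 were called higher and 1 lower, where 1.44% of all genes were called higher and 0.478% lower. Stellate cell markers averaged between 6.49 and 6.79 in KO livers on chow, against 6.06 to 6.82 in HET livers, with 1 called higher and 1 lower. Cholangiocyte markers averaged between 3.17 and 3.75 in KO livers on chow, against 2.82 to 3.12 in HET livers, with 0 called, and hepatocyte markers between 11.28 and 11.35, against 11.33 to 11.34, with 0 called. Lymphocyte, neutrophil and endothelial markers, and those of fat and pancreas, held 0 calls on chow. The part of cell makeup in the differences of Asl, Cps1 and the other genes was not tested.

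**Figure D3:**
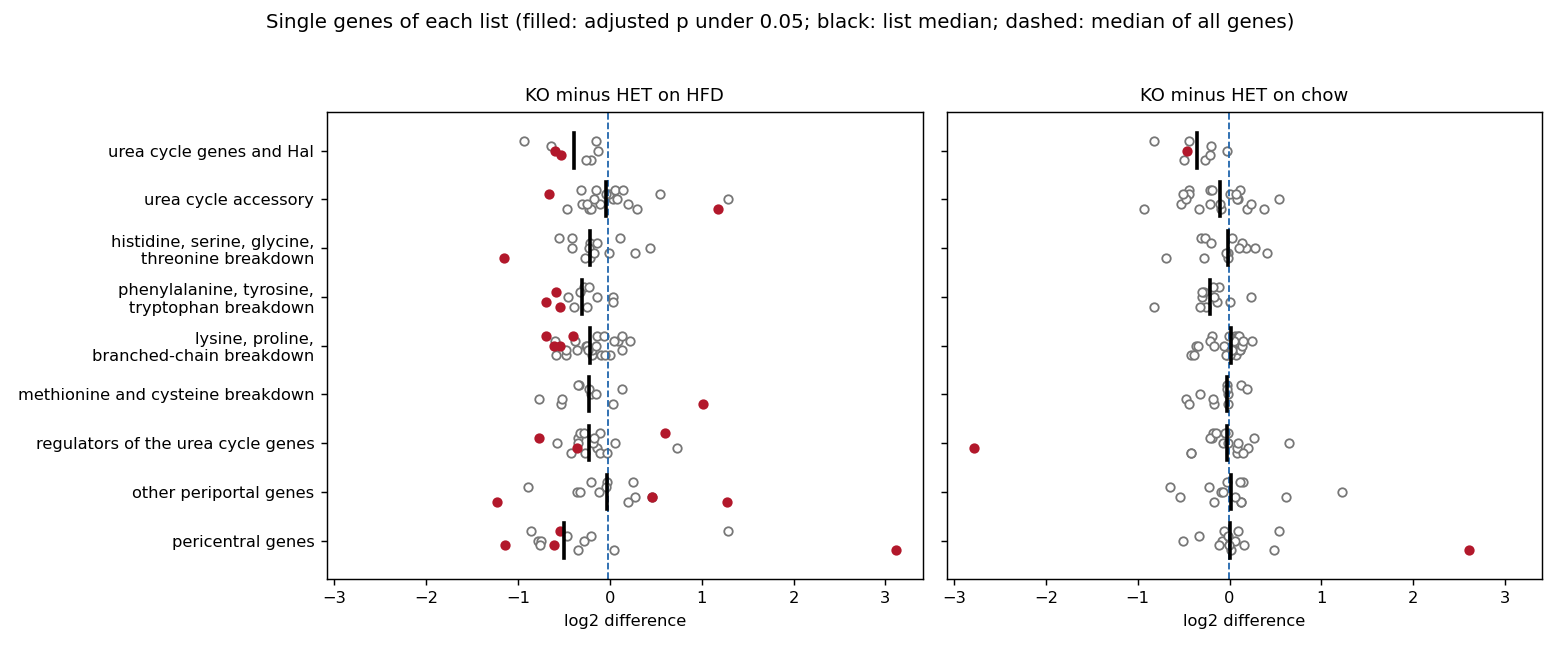
Differences in log2 intensity between KO and HET livers on HFD and on chow for each gene of the 8 genes and of the other gene lists. Dots are genes, black marks are list medians and the dashed line is the median of all genes. The median of the 8 genes lies at -0.39 on HFD and -0.35 on chow, against -0.02 and -0.01 over all genes.

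Other routes of amino acid breakdown held calls on HFD, mostly downward. In KO relative to HET livers on HFD, 2.06% of all genes were called lower and 5.5% higher. Of 12 genes for phenylalanine, tyrosine and tryptophan, 3 fell in KO relative to HET livers on HFD and none rose, with a median of -0.31. Haao, which makes quinolinate from a tryptophan product, fell by 0.70 (SE 0.10, adjusted p = 0.000879) and read 10.02, 9.91 and 9.94 in KO livers, against 10.74, 10.63 and 10.59 in HET livers. Hpd, of tyrosine breakdown, fell by 0.54 (SE 0.11, adjusted p = 0.0112, but 0.0536 without KO C4), and Qdpr, which recycles the cofactor of phenylalanine hydroxylase, fell by 0.59 (SE 0.16, adjusted p = 0.0394).

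Of 26 genes for lysine, proline and branched-chain amino acids, 4 fell and none rose on HFD. Their median difference was -0.22, and of all genes 2.06% were called lower and 5.5% higher. Acadsb, a dehydrogenase of isoleucine breakdown, read 9.02, 8.89 and 8.69 in KO livers on HFD, against 9.57, 9.48 and 9.64 in HET livers, and fell by 0.70 (SE 0.12, adjusted p = 0.00308). Bcat2, the mitochondrial branched-chain aminotransferase, fell by 0.61 (SE 0.14, adjusted p = 0.0165), Ivd, of leucine breakdown, by 0.54 (SE 0.14, adjusted p = 0.0276) and Pccb, a subunit of propionyl-CoA carboxylase, by 0.41 (SE 0.10, adjusted p = 0.024). Among 14 genes for histidine, serine, glycine and threonine 1 fell, Agxt, which detoxifies glyoxylate (-1.15 ± 0.30, adjusted p = 0.0361). Among 11 genes for methionine and cysteine 1 rose, Csad, of taurine synthesis (1.02 ± 0.23, adjusted p = 0.0172). On chow the mean of Csad was lower in KO livers (9.57, 9.56 and 10.12) than in HET livers (10.40, 10.13 and 10.05), without a call. On chow none of these 4 lists held a call between KO and HET livers by limma. At an unadjusted p under 0.05 on chow, which 13.4% of all genes met in either direction, 2 genes of the phenylalanine list, 4 of the lysine list and 2 of the histidine list were lower, 1 of the histidine list was higher and 0 of the methionine list passed, and under the alternatives each list held at most 2 calls. Over both diets the lists for phenylalanine, lysine, histidine and methionine held 5, 6, 2 and 1 calls in that order, all downward. Of all genes 2.9% were called lower over both diets.

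The calls of Haao, Acadsb, Slc7a2 and Slc7a7 on HFD held when any single array was left out. Those of Bcat2 (without KO C4), Csad (without HET A2 or KO C4), Pccb (without HET A2, HET B1, KO C2 or KO C4), Ivd (without HET A2, HET B2 or any KO liver on HFD), Agxt (without KO H2, HET B1, HET B2 or any KO liver on HFD) and Qdpr (without KO I1 or any liver on HFD) were lost, with adjusted p up to 0.0601, 0.0788, 0.107, 0.0806, 0.117 and 0.12 in that order.

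Of 18 listed regulators of urea cycle genes or enzymes, 1 rose and 2 fell in KO relative to HET livers on HFD. Their median difference was -0.23, and of all genes 5.5% were called higher and 2.06% lower. On chow 1 of the 18 fell, Onecut1, where 0.478% of all genes were called lower. Onecut1, a hepatocyte transcription factor also named HNF6, read 6.22, 6.04 and 5.87 in KO livers on chow, against 9.10, 9.41 and 7.98 in HET livers and 9.42 and 9.69 in WT livers on chow. The groups did not overlap, and the differences were -2.78 ± 0.40 from HET livers (adjusted p = 0.0027) and -3.51 ± 0.45 from WT livers (adjusted p = 0.00123). Both calls held when any single array was left out, and both were lost with age as a linear term (adjusted p = 0.309 and 0.262), the first also with HET F1 and F2 both left out (-1.93, adjusted p = 0.135). On HFD Onecut1 read 8.19, 8.36 and 7.43 in KO livers, against 7.65, 7.78 and 6.35 in HET livers, and the difference of 0.73 ± 0.40, of the other sign, did not pass (adjusted p = 0.333). The interaction of Onecut1 with diet was 3.52 ± 0.57 (adjusted p = 0.0544). Its call over both diets (-1.02 ± 0.28, adjusted p = 0.0389) thus averages differences of opposite sign, and it was lost without any 1 of 11 arrays (adjusted p up to 0.0968).

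Klf15, a factor that drives amino acid breakdown in fasting mice, read 8.20, 8.08 and 8.32 in KO livers on HFD, against 9.06, 9.08 and 8.78 in HET livers on HFD. It fell by 0.78 (SE 0.11, adjusted p = 0.0012), a call that held when any single array was left out, and on chow its difference of -0.22 ± 0.11 did not pass (adjusted p = 0.435). Within KO livers Klf15 fell on HFD by 0.62 relative to chow (adjusted p = 0.0374, and up to 0.126 without 1 array). Hnf4a, a nuclear receptor of hepatocyte identity, fell by 0.36 in KO on HFD (SE 0.10, adjusted p = 0.0423), and Sirt5, which activates CPS1 by removing acyl groups, rose by 0.60 (SE 0.17, adjusted p = 0.048) with groups that overlapped. These last 2 calls were lost without any 1 of 10 or more arrays. Gcgr, the glucagon receptor, fell by 0.25 over both diets (SE 0.07, adjusted p = 0.0345, and up to 0.0912 when 1 array was left out).

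**Figure D4:**
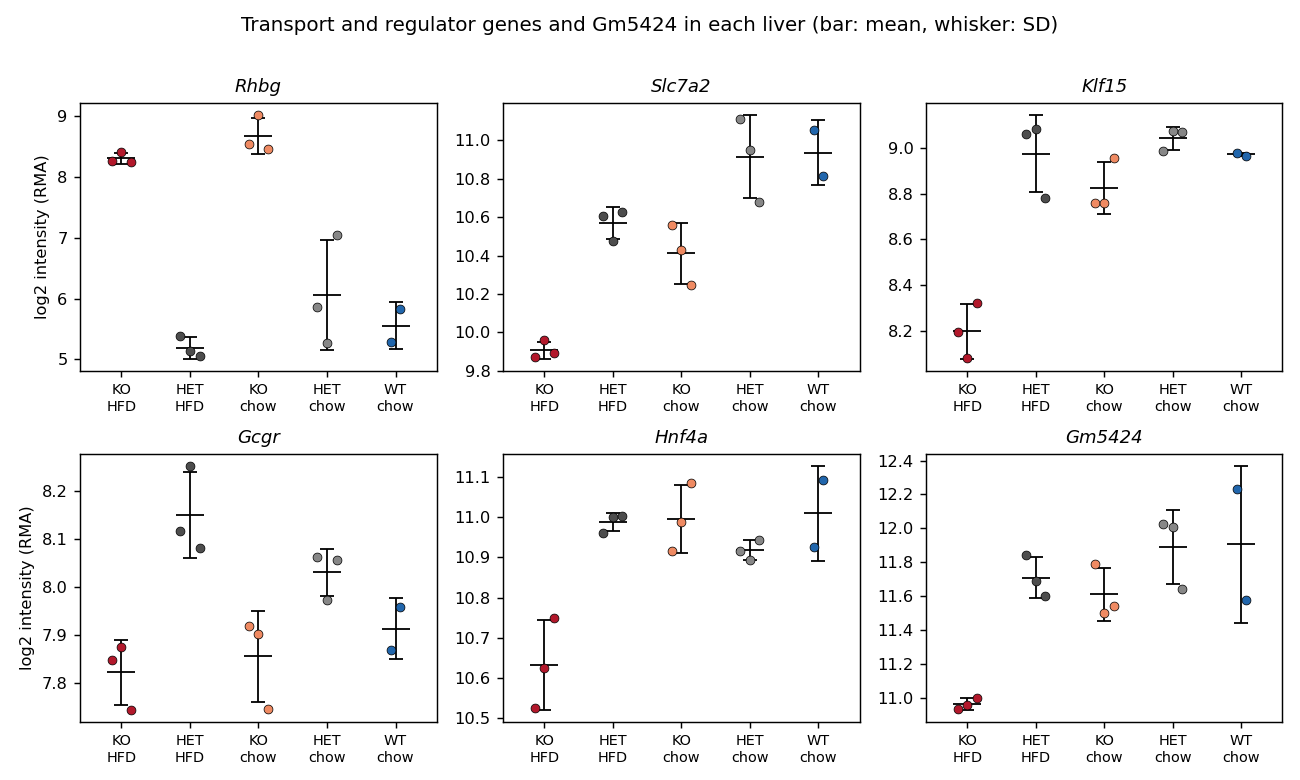
Log2 intensity (vertical axes) of 6 genes around the cycle in each liver, by genotype and diet. Dots are single livers, bars are group means and whiskers are SDs. Slc7a2 and Klf15 are lowest in the 3 KO livers on HFD, and Rhbg is above 8 in all 6 KO livers and at most 7.04 in the other 8.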

How the data were processed

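Log2 intensities per probe set were deposited by the authors; RMA and limma are named in the submitters' processing notes, and their versions, any batch adjustment and the genome build are not given in the sources used here. Of 41345 probe sets 23521 carried 1 gene symbol, 1814 several and 16010 none in the array annotation. The brightest probe set of the 1082 genes with several was used, for 22180 genes in all, and no gene was dropped for a low level. With limma 3.58.1 in R 4.3.3, the 14 arrays were fitted together by group (9 residual and 3.83 prior degrees of freedom), and 8 contrasts were tested. P-values were adjusted over all genes within a contrast by the method of Benjamini and Hochberg, and calls are those with an adjusted p under 0.05. The number of arrays limits the precision. The procedure was tested on simulated data.

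The 10 genes, the other gene lists and the tests were chosen with earlier results of these data known, so that they are no independent support. Named genes are the 10 and called members of the lists (up to 6 a list and contrast), but not every called member is described. Left out were, for example, Aldh4a1, Prodh2, Tat and the periportal gene Apoa4, which rose on HFD in HET livers (3.14 ± 0.31, SE, limma, adjusted p = 0.000948). Also named are the 6 genes most like the mean of the 8 and, for each of the 8, the most alike of the others. Glul, of the pericentral list, was not called and is given outside this rule. Lmna, Dbp, Arntl and Gm5424 were added after their values were seen. Alternatives were array weights, a trended and robust prior, median centring, fits restricted to the groups compared, averaging the probe sets of a gene, dropping dim ones, quantile normalization again, the letter of each array name taken as a random block, a linear age term, stricter calls (1.5-fold, or an adjusted p under 0.01) and leaving out each array. A clock term (Dbp minus Arntl) and leaving out both HET F1 and HET F2 were chosen after seeing the data.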

Additional observations from a re-analysis of the deposited data

How the results depend on the processing

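Of the 8 genes, 1 was called in KO relative to HET livers on chow, 2 with array weights or with a trended and robust prior, and 0 with only the groups compared, median centring, a 1.5-fold minimum, an adjusted p under 0.01, a clock term, or HET F1 and F2 both left out. The trended prior called 1 and not 0 against WT livers, 1 and not 0 between diets in HET livers and 2 and not 1 between diets in KO livers. On HFD 2 were called in KO relative to HET livers, but 1 with age as a linear term (Slc25a15, and neither Asl nor Cps1) or a 1.5-fold minimum. Over both diets 3 were called, but 1 with age (Slc25a15) and 0 at 1.5-fold. That count was 4 with array weights, a second quantile normalization or the clock term, which added Ass1 (-0.97, -1.08 and -0.80, adjusted p = 0.0439, 0.0455 and 0.0264), and 2 with probe sets averaged, an adjusted p under 0.01 or F1 and F2 both left out, which lost Nags. Between diets the age term called 1 and not 0 in HET livers and 0 and not 1 in KO livers, where it was also 0 with only the groups compared or an adjusted p under 0.01, and it called 1 and not 0 for the interaction. Without 1 array the counts ran between 0 and 2 on chow, 2 and 2 on HFD, 2 and 4 over both diets and 0 and 1 between diets in KO livers, and were 0 in the other comparisons. With age, Aldh1b1 on HFD turned to -1.28 and Slc1a2 over both diets to 1.39, and 14 of 64 differences of the 8 genes had the opposite sign. The slope of that term was set by HET and WT livers only, and the cause of these turns was not tested. Ass1 was called on HFD with the clock term (-1.09, adjusted p = 0.0382). The mean of both Nags probe sets gave -0.34 over both diets (adjusted p = 0.0521). With both F1 and F2 left out, Gm5424 over both diets gave -0.39 (adjusted p = 0.142). Values called in neither fit were compared by whether they moved by more than the SE, and no direction was read from them.

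Over all genes, the calls between KO and HET livers on chow were 426, but 216 with only the groups compared, 201 with age, 157 at an adjusted p under 0.01 and 143 without F1 and F2. Against WT livers they were 367, and 124 to 427 over the alternatives, and between HET and WT livers 0, and 0 to 6. On HFD they were 1677, but 249 with age and 705 at an adjusted p under 0.01. Over both diets they were 2091, but 211, 1122 and 1001 with age, a 1.5-fold minimum and the stricter adjusted p. Between diets they were 44, and 3 to 271, in HET livers and 70, and 9 to 221, in KO livers, and the interaction gave 8, and 1 to 206. On HFD the calls among 21 genes around the cycle were 2 (2 to 5), among 14 for histidine and serine 1 (0 to 3), among 12 for phenylalanine and tryptophan 3 (1 to 6), among 26 for branched-chain amino acids and lysine 4 (1 to 7), among 11 for methionine 1 (0 to 3), among 14 periportal genes 3 (0 to 3), among 14 pericentral genes 4 (1 to 6) and among 18 regulators 3 (1 to 5). No paired analysis was possible because the replicate numbers were given in accession order and pair no livers. Dim probe sets such as those of Ass1, Lmna and many neutrophil markers limit what can be measured.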

Other observations

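Genes of the 2 liver zones did not move as 1 block. Of 14 other periportal genes 2 rose and 1 fell in KO relative to HET livers on HFD (5.5% and 2.06% of all genes), and their median difference was -0.04. Igfbp2, an insulin-like growth factor binding protein, read 9.27, 9.16 and 9.002 in KO livers on HFD, against 10.23, 10.12 and 10.76 in HET livers on HFD, and fell by 1.23 (SE 0.22, limma, adjusted p = 0.00409). Aldh1b1, a mitochondrial aldehyde dehydrogenase, rose by 1.27 (SE 0.33, adjusted p = 0.0331) and Hsd17b13, a lipid droplet protein, by 0.45 (SE 0.12, adjusted p = 0.0394). The calls of Aldh1b1 and Hsd17b13 were lost without any 1 of several arrays (adjusted p up to 0.116 and 0.133).

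Of 14 pericentral genes 1 rose and 3 fell on HFD, with a median of -0.50 and against 5.5% and 2.06% of all genes, and on chow 1 rose, against 1.44% of all genes. Rhbg, an ammonium transporter, read 8.25, 8.41 and 8.25 in KO livers on HFD, against 5.39, 5.13 and 5.05 in HET livers on HFD, a difference of 3.11 ± 0.33 (SE, adjusted p = 0.000163). On chow it read 8.53, 9.01 and 8.45 in KO livers, against 5.87, 5.27 and 7.04 in HET livers, a difference of 2.61 ± 0.33 (adjusted p = 0.00119), and its groups overlapped on neither diet. Glul, glutamine synthetase, the pericentral enzyme that takes up ammonia left by the urea cycle, averaged 11.78 in KO livers on HFD and 11.73 in HET livers on HFD, a difference of 0.05 ± 0.25 that did not pass (adjusted p = 0.947). On chow Glul read 11.83, 11.74 and 11.50 in KO livers, against 10.97, 10.87 and 11.77 in HET livers, where F1 and F2 were low and P1 was among the KO livers, and the difference of 0.49 ± 0.25 did not pass (adjusted p = 0.432). Cyp2c29, a cytochrome P450, read 10.55, 10.73 and 10.43 in KO livers on HFD, against 11.91, 11.90 and 11.32 in HET livers on HFD, and fell by 1.14. Cyp27a1, of bile acid synthesis, fell by 0.54 and Nkd1, a Wnt target, by 0.61 (adjusted p up to 0.0993 and 0.123 without 1 array).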
